A study of Mus musculus with 5 samples.

Results

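The clustered histone genes are the histone genes that lie together in tandem groups in the mouse genome. They were taken as the symbols that start with Hist1h, Hist2h, Hist3h or Hist4, at loci that carried 1 gene symbol. The rule gave 46 of the 21372 symbols measured. Of these, 39 belong to Hist1, 3 to Hist2 (Hist2h2be, Hist2h3c2 and Hist2h4), 3 to Hist3 (Hist3h2a, Hist3h2ba and the pseudogene Hist3h2bb-ps) and 1 is Hist4h4. By histone type there were 2 H1, 13 H2A, 12 H2B, 9 H3 and 10 H4 members. The rule picked members by name alone. For the 2 members with several loci, Hist1h2ao and Hist1h2bq, measured values picked the locus.

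RNA-seq was done on mouse embryonic fibroblasts (MEFs), connective-tissue cells taken from embryos and grown in culture, of the C57BL/6 background at passage 30. All lines except WT came from Prep1 hypomorphic embryos, in which the gene for the homeobox factor Prep1 (Pknox1) is expressed at a reduced level. These hypomorphic cells overexpressed Meis1 (M), Prep1 (P) or both (MP), or carried an empty vector (EV), the control that M, P and MP share. WT was the line with wild-type Prep1, and EV was set against it. Each group held 1 library, so every difference below is between libraries, has no replicate check and carries no test or p-value. The sources used here do not say how the added genes were driven or whether each line was 1 clone.

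Histones are the proteins that DNA is wound around. Most genes of these clusters are made into RNA mainly while a cell copies its DNA, so that new DNA is packed as it is made, and in cultured fibroblasts their RNA is known to follow the share of cycling cells. Their messages are mostly free of introns and end in a short stem-loop, bound by the protein Slbp, in place of a poly(A) tail; some members also give a longer, polyadenylated form. The labels name total RNA and do not say whether poly(A) RNA was selected.

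The stem-loop was searched in the members' longest GENCODE vM21 transcripts, on the sense strand, as GGNNCTTNTNAGNNCC, where N is any base. It was found after the end of the reading frame in 30 of the 46 members. Over the annotation, where a match anywhere in the transcript was counted, 172 of 55341 genes had it (0.311%). Of the other 16 members, 12 have a transcript model that stops within 20 bases of the end of the reading frame. The stretches of 9 members are shown here because the stem of H4 genes differs from that of the H2A and H3 genes, with the stem-loop in capitals.
Hist1h2ab: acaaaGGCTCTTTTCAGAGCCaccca
Hist1h3c: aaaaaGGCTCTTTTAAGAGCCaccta
Hist1h3g: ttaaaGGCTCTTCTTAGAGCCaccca
Hist1h4c: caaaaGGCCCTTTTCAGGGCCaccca
Hist1h4i: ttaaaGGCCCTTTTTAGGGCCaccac
Hist1h4j: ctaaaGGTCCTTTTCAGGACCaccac
Hist2h4: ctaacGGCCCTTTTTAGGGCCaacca
Hist3h2a: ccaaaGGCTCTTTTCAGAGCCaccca
Hist4h4: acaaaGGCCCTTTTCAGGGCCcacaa

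The 30 members shared 7 distinct stem-loops. The H2A and H3 members shown have a GGCTC stem, which pairs with GAGCC. The H4 members have a GGCCC stem, apart from Hist1h4j, with GGTCC. The loop of Hist4h4 is the same as that of Hist1h4c, although Hist4h4 lies outside Hist1. What follows the stem-loop differed more than the stem-loop itself. The model of Hist1h2ab has 11 more bases after it, and that of Hist1h4a has 108. Those of Hist2h4, Hist3h2a, Hist1h2ac and Hist4h4 go on for 1257, 1643, 2010 and 2445 bases.

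Promoter windows of 300 bases around the annotated start, most of it before the start, came from RefSeq (GRCm38.p6) for 41 of the 46 members. Hist1h3a, Hist1h3f, Hist2h2be, Hist2h4 and Hist3h2bb-ps had no entry. The windows of 5 members are shown because they stand for the groups described below: a shared H2A and H2B start, a Hist1 H3, a Hist1 H4 and the members outside Hist1. Their positions are chr13:23934187-23934486 (+) for Hist1h2aa, chr13:23745472-23745771 (-) for Hist1h3c, chr13:22041313-22041612 (-) for Hist1h4i, chr11:58954435-58954734 (+) for Hist3h2a and chr6:136804382-136804681 (-) for Hist4h4. Capitals mark the letters of the CCAAT box (CCAAT), the TATA box (TATAAA) and the octamer (ATTTGCAT), each on either strand and at any place in the window.
Hist1h2aa: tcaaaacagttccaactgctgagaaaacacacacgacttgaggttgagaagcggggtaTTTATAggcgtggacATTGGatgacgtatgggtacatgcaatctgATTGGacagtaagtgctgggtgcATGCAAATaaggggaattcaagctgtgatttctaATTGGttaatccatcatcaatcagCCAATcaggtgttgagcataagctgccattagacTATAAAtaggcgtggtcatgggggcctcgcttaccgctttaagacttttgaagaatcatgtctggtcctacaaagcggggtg
Hist1h3c: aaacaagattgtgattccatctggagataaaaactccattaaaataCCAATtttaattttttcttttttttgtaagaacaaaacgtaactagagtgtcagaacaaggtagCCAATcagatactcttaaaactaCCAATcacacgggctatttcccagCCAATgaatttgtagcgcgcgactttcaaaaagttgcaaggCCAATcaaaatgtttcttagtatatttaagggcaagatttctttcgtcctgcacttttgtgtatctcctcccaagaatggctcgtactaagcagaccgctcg
Hist1h4i: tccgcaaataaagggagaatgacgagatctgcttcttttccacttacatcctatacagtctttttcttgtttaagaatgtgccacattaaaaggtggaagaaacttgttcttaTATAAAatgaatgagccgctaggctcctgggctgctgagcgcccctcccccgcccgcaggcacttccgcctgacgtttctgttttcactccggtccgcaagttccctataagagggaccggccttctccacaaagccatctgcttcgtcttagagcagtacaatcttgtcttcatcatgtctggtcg
Hist3h2a: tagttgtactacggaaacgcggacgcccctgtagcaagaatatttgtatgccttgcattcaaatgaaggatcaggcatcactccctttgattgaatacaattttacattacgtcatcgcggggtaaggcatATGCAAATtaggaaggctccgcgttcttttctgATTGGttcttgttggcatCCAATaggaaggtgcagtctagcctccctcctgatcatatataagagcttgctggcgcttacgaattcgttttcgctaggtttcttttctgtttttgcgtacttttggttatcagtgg
Hist4h4: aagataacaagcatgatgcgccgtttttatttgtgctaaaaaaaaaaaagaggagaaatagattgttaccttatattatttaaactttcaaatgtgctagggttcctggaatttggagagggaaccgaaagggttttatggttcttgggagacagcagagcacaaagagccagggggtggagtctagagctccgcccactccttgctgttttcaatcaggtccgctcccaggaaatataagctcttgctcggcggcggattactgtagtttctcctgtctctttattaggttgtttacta

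The CCAAT box, bound by the factor NF-Y, was found in 34 of 41 members, against 37.9% of 27025 RefSeq promoters. All 13 H2A, 10 H2B and 7 H3 windows held it, and 2 of 9 H4 windows did. The letters of the TATA box were found in 25 members, against 14.2% of promoters. They were counted at any distance from the start, and in Hist1h4f they open the window. Variants of these letters were not counted. The octamer, the site of the POU factor Oct1 (Pou2f1), was found in 10 members, 6 H2A and 4 H2B, against 1.75% of promoters. An AP-1 site (TGACTCA) was found in 0 members, against 5.17% of promoters, and the core that TALE factors such as Meis1 and Prep1 can bind (TGACAG) in 5, against 19.3%. The window of Hist4h4 held none of these letters. In 7 pairs an H2A and an H2B gene of Hist1 start in opposite directions, and their windows share 220 to 277 bases, so these pairs count shared letters once for each gene. A match is a description of the letters and does not show that a factor is bound.

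Levels are FPKM, fragments per kilobase of transcript scaled to library size, set so that the upper quartile of the genes in each library equals 10 scaled units. This scaling matters here because the deposited upper quartiles were 448 FPKM in M, 12.0 in P, 10.1 in MP, 165 in EV and 12.5 in WT. Hist1h2ab (XLOC_010163) was deposited at 1007 FPKM in M, 21.4 in P, 19.5 in MP, 490 in EV and 21.8 in WT, and most of that spread belongs to the whole library. Read depth is unknown, since no counts are given. Meis1 stood at 16.1 scaled units in M, 8.55 in P, 14.7 in MP, 7.91 in EV and 12.0 in WT. Pknox1 went against 2 of the labels: it stood at 3.11 in M, 0.534 in P, 0.542 in MP, 2.06 in EV and 10.7 in WT. The letters P and MP therefore stand for the libraries so labelled, and every direction drawn from them rests on labels that Pknox1 did not bear out. Fibroblast markers summed to 108, 98.3, 109, 118 and 87.9 scaled units in M, P, MP, EV and WT, with 8 of 9 at 1 unit or more in M, P, MP and EV and all 9 in WT. The 7 epithelial markers summed to 0.553 to 2.76, the 7 endothelial markers to 0.928 to 2.25, the 7 blood cell markers to 2.94 to 4.42, with Csf1r at 3.41 to 3.53 in M, P and MP, and the 8 germ cell markers to 2.02 to 3.65.

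Many of the histone genes were among the single-gene loci with the highest scaled levels. The median member stood at 13.9 scaled units in M, 11.5 in the library labelled P, 11.3 in the library labelled MP, 15.7 in EV and 11.0 in WT. The 95th percentile of all genes lay at 15.1, 13.7, 14.9, 15.9 and 13.3 units in the same libraries, above the median member in each. Above that percentile were 21, 14, 13, 22 and 13 of the 46 members. The 99th percentile of all genes lay at 19.9, 17.8, 18.9, 20.1 and 17.3 units, and 9, 6, 6, 12 and 6 members were above it. No member was at 0 in any library, and 44 of 46 stood at 1 unit or more in every library. The most abundant member was Hist1h3b in M, at 28.2 units, Hist1h4i in the libraries labelled P and MP, at 22.6 and 26.2, Hist1h2ab in EV, at 29.6, and Hist1h4a in WT, at 23.8. The scale is narrow at its upper end for all genes: the 99th percentile lay at 17.3 to 20.1 units, where the upper quartile is 10. In WT the fibroblast markers Col1a1 and Vim stood at 10.5 and 10.8 units and Col1a2 at 17.1, with the regulator gene Npat at 11.2. Whether a fold in these units, here or below, equals the same fold of RNA was not tested. Over the 36 members at 5 units or more in every library, the highest library was 1.26 to 2.13 times the lowest, with a median of 1.58.

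**Figure D1:**
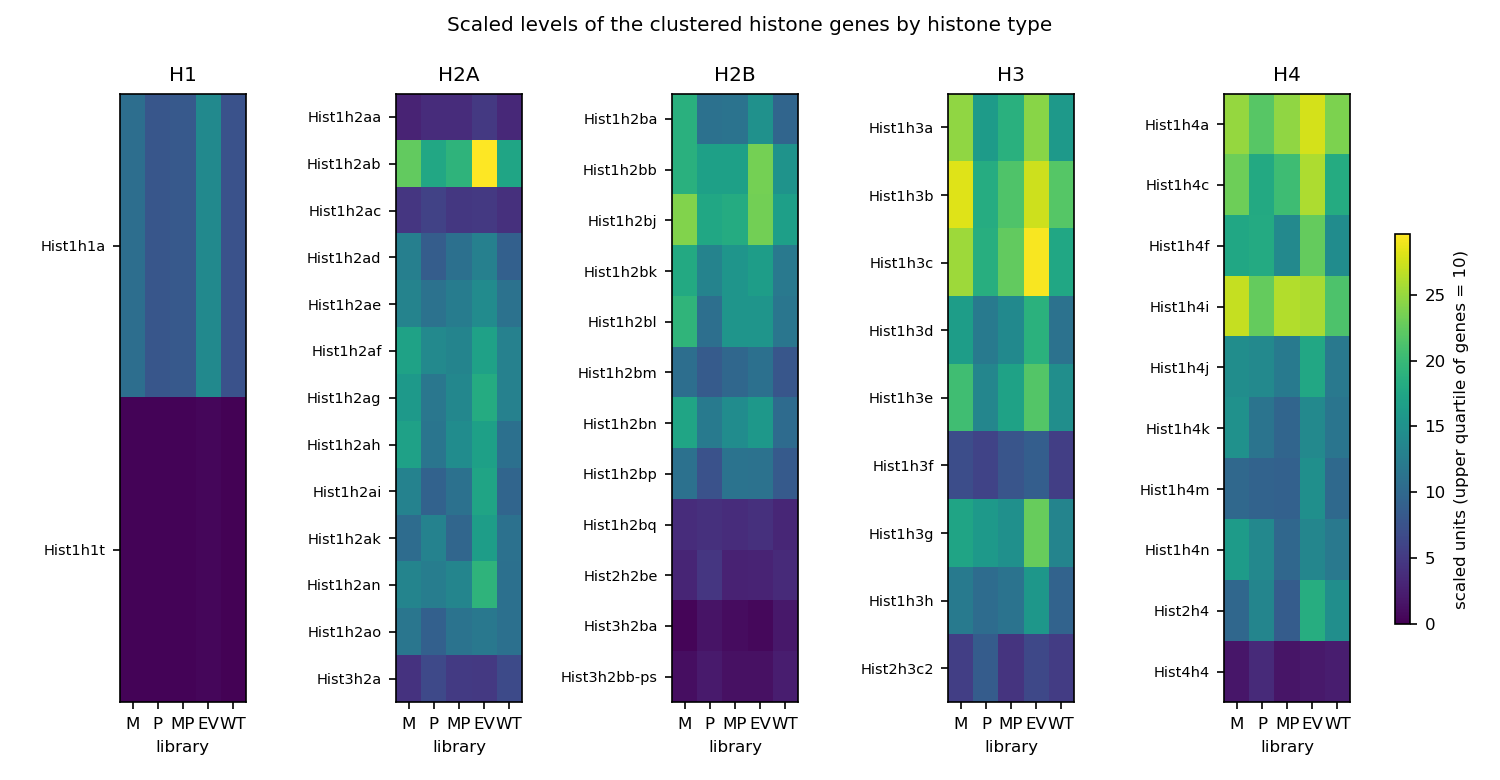
Scaled levels (colour, scaled units with the upper quartile of genes at 10) of the 46 members in the libraries M, P, MP, EV and WT, 1 panel for each histone type and 1 library per column. The EV column holds the highest value for 25 members, and the WT column the lowest for 23.

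The highest library was most often EV or M for Hist1 members, and P or WT for the others. EV and M were also the libraries with the highest deposited upper quartiles. In them 2.18% and 9.37% of genes were listed at 0, against 24.6%, 27.5% and 22.0% in P, MP and WT. The part of this library difference in the pattern was not tested. Of 39 Hist1 members, 12 were highest in M, 2 in the library labelled P, 1 in the library labelled MP, 24 in EV and 0 in WT. The lowest library was M for 1, the library labelled P for 10, the library labelled MP for 5, EV for 0 and WT for 23. Of the 5265 genes with a mean of 10 units or more, 39.8% were also highest in EV and 20.5% in M, and 63.8% were lowest in WT, but 9.29% were lowest in the library labelled P. Of the 7 members outside Hist1, 3 were highest in the library labelled P, 3 in WT and 1 in EV, and their lowest library was M for 3 and the library labelled MP for 4. The median Hist1 member stood at 16.3, 12.0, 13.4, 16.5 and 11.2 units in M, P, MP, EV and WT, and the median member outside at 3.05, 4.69, 2.87, 2.91 and 3.54. In a bulk sample, fewer cells that carry an RNA and less of that RNA per cell cannot be told apart.

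Histone H3, which with H4 forms the centre of the nucleosome, gave the plainest pattern. Hist1h3c (XLOC_010681) stood at 25.2 units in M, 18.6 in the library labelled P, 22.5 in the library labelled MP, 29.3 in EV and 17.6 in WT. Hist1h3a stood at 24.7, 16.3, 18.8, 24.3 and 16.1 units in the same libraries, and Hist1h3b at 28.2, 18.3, 21.5, 27.3 and 21.8. All 3 genes were highest in M or EV, and Hist1h3b was lowest in the library labelled P and the others in WT. The median of the 8 Hist1 H3 genes was 18.9, 14.8, 16.0, 22.2 and 14.0 units in M, P, MP, EV and WT. Hist1h3f was the least abundant of them, at 6.97, 5.94, 7.84, 8.88 and 5.51.

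Histone H4 was more mixed. Hist1h4a stood at 24.9, 21.9, 24.7, 27.7 and 23.8 units in M, P, MP, EV and WT, and Hist1h4i (XLOC_010648) at 27.0, 22.6, 26.2, 25.8 and 21.4. These were among the flattest members, with the highest library 1.26 and 1.27 times the lowest. Hist1h4f, Hist1h4k, Hist1h4m and Hist1h4n, 4 of the 8 Hist1 H4 genes, were lowest in the library labelled MP. Hist1h4n stood at 16.3, 13.9, 9.84, 13.6 and 11.9 units, and Hist1h4m, whose coding sequence of 312 bases is identical to that of Hist1h4n, at 9.96, 9.38, 9.15, 14.7 and 10.1. The sources used here do not state how reads that match several copies were assigned. The coding sequences of H2A, H3 and H4 members were a median of 97.5%, 97.6% and 93.9% identical between pairs, and those of H2B 89.8%, so differences between single members are uncertain where they share such stretches.

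Histones H2A and H2B form the outer dimers of the nucleosome. Hist1h2ab stood at 22.5, 17.8, 19.3, 29.6 and 17.4 units in M, P, MP, EV and WT, and was the highest H2A gene in each. Hist1h2bj, the most abundant H2B gene on average, stood at 24.0, 17.7, 18.2, 23.3 and 16.7, and Hist1h2bb at 18.8, 16.8, 16.8, 23.4 and 15.2. The median Hist1 H2A gene was at 13.2 units in M and 16.7 in EV, and the median Hist1 H2B gene at 18.0 in M and 15.5 in EV. The ratio of H2B to H2A varied between the shared starts. For Hist1h2ba and Hist1h2aa it was 6.40 in M, 2.92 in the library labelled P, 2.99 in the library labelled MP, 3.06 in EV and 2.82 in WT. For Hist1h2bn and Hist1h2ak it was 1.66, 0.920, 1.48, 0.955 and 0.929 in the same order. For Hist1h2bk and Hist1h2ah it lay between 0.980 and 1.15 in all 5 libraries.

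Among the linker histones, which bind DNA between nucleosomes, the 2 members measured alone were Hist1h1a and Hist1h1t. Hist1h1a stood at 10.7, 7.92, 8.23, 14.0 and 7.44 units in M, P, MP, EV and WT. Hist1h1t, the testis form, stood at 0.326, 0.329, 0.330, 0.551 and 0.175, below 1 unit in every library. The other germ-line members were higher: Hist1h2aa stood at 2.94, 3.77, 3.76, 4.89 and 3.42, and Hist1h2ba, the testis H2B, at 18.8, 11.0, 11.3, 15.0 and 9.65. The coding sequence of Hist1h2ba shares runs of up to 177 bases with other H2B genes, and reads from these cannot be told apart from its own here. The 8 germ cell markers stood at 1.40 units or less in every library. The main somatic linker genes Hist1h1b to Hist1h1e lay in loci that join several genes, which the rule leaves out. The locus of Hist1h1b and Hist1h3i stood at 21.1, 18.6, 20.2, 32.0 and 17.9 units.

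EV against WT asks how hypomorphic cells with an empty vector differ from wild-type ones. All 38 Hist1 members at 1 unit or more in 1 of the 2 libraries were higher in EV, while 5 of the 7 members outside Hist1 were lower; on the values as deposited, 5 of these 7 lay above the median of all genes instead. Differences are given as log2((level + 1)/(level + 1)), which understates those of low genes. The median was 0.49 for Hist1 and -0.22 outside it, against 0.04 for all 11566 genes kept. The clusters outside Hist1 were not alike. Hist2 had a median of 0.25, with 2 of 3 members above 0, Hist3 had -0.52, with 0 of 3, and Hist4h4 was at -0.11. With the filter at 5 units only 3 members outside Hist1 were kept, and their median was 0.25. Of all genes kept at 1 unit, 53.6% were above 0 and 46.4% below. Under a scaling by median ratios, 37 of the 38 Hist1 members were still above 0, and the median of all genes stood at -0.08. Many abundant genes shared the direction of Hist1: of 5265 genes with a mean of 10 units or more, 79.6% were above 0, with a median of 0.20. Members outside Hist1 were less abundant, with a median of 2.91 units in EV against 16.5 for Hist1. No share was taken over genes of their level, here or in the comparisons below. Whether abundance has a part in the difference between the clusters was not tested. The fibroblast markers also summed higher in EV, at 118 units against 87.9 in WT, and their part in the result was not tested.

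At 1.5-fold, 11 members were higher in EV, all of Hist1, or 24.4% of the 45 kept, against 8.43% of all genes and 6.89% of the abundant ones. Hist1h1a had the largest difference, 0.83. Hist1h2ai was at 17.3 units in EV and 9.60 in WT (0.79), Hist1h2an at 19.3 and 11.0 (0.76), and Hist1h2ab at 29.6 and 17.4 (0.74). H3 had 5 of the 11, with a median of 0.64 over its 8 Hist1 genes, against 0.37 for the 8 Hist1 H4 genes. By the median-ratio scaling the count was 6. One gene, Hist3h2ba, was 1.5-fold lower in EV (-0.82), against 14.1% of all genes; it stood at 0.678 units in EV and 1.96 in WT. Its values as deposited pointed the other way, at 1.97, because the whole EV library stands higher there: the median of all genes was 3.21.

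**Figure D2:**
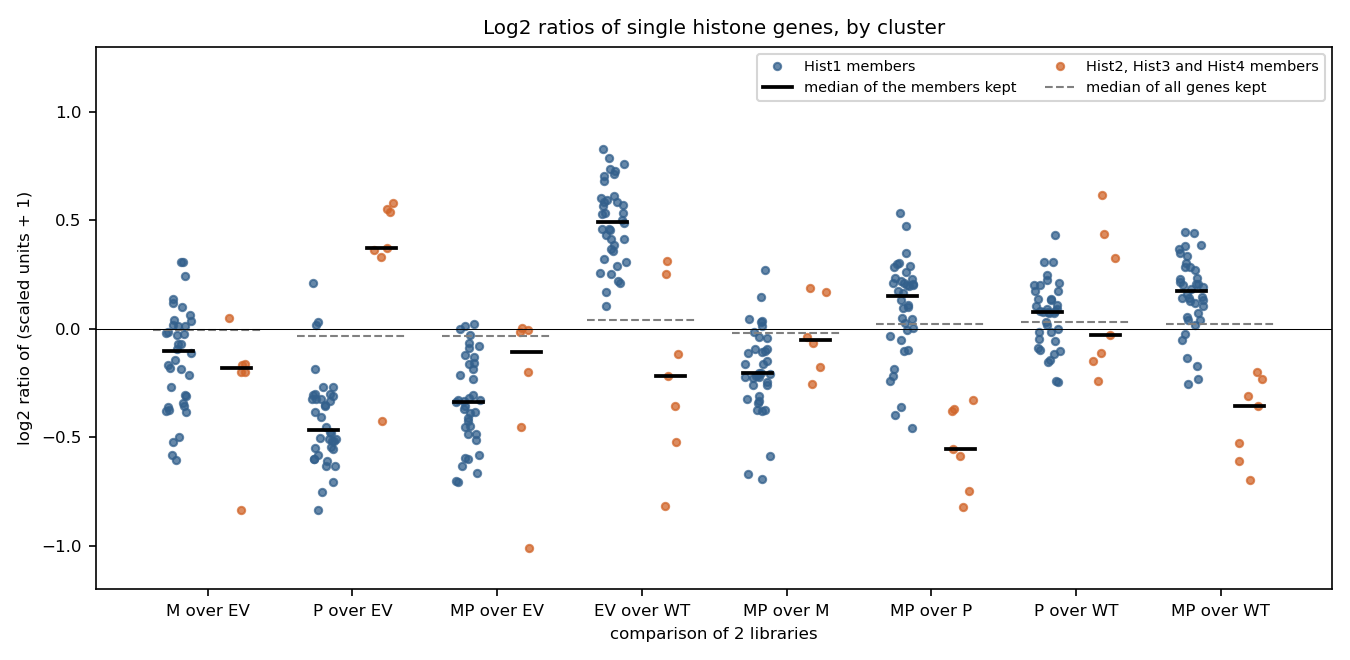
Log2 ratios (vertical axis, log2 of scaled units + 1) of single members in the 8 comparisons of 2 libraries, with Hist1 members in blue and Hist2, Hist3 and Hist4 members in orange. Black bars are medians of the members kept and dashed lines medians of all genes kept. The Hist1 and other medians lie apart at 0.49 and -0.22 in EV over WT, at -0.46 and 0.37 in P over EV and at 0.15 and -0.56 in MP over P. EV over WT and P over EV share the EV library. P over EV and MP over P share the library labelled P, so these comparisons are not independent.

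The library labelled P against EV asks what Prep1 overexpression does in hypomorphic cells, with Pknox1 against the label. It shares the EV library with the comparison above. Of 38 Hist1 members 35 were lower in the library labelled P, with a median of -0.46, and 6 of the 7 members outside Hist1 were higher, with a median of 0.37. Over all 11069 genes kept, 55.6% were below 0, 44.4% were above 0 and the median was -0.03; of the abundant genes 75.6% were below 0. The 3 Hist1 members above 0 were Hist1h2ac (0.21), Hist1h4n (0.03) and Hist1h2bq (0.02).

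At 1.5-fold, 8 Hist1 members were lower in the library labelled P, or 17.8% of the 45 kept, against 4.44% of all genes and 1.98% of the abundant ones. These were Hist1h2ai (9.27 units against 17.3 in EV, -0.83), Hist1h1a (-0.75), Hist1h2ab (-0.71), Hist1h3c and Hist1h3e (-0.63 each), Hist1h3d (-0.61), Hist1h4m and Hist1h2ag (-0.60 each). Under the median-ratio scaling 3 members were 1.5-fold lower. All 8 Hist1 H3 genes were lower, between -0.63 and -0.48. No member was 1.5-fold higher, against 2.5% of all genes, although Hist3h2ba (0.58), Hist4h4 (0.55) and Hist2h2be (0.54) were close to it. Under the median-ratio scaling 3 members were past it, and 3 with a pseudocount of 0.1.

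M against EV asks what Meis1 overexpression does. The histone genes differed less here: the median was -0.15, with 31 of 44 members below 0, against 51.4% of all 11039 genes kept below 0 and 48.6% above. Of the Hist1 genes, 10 of 12 H2A (median -0.14), 6 of 8 H3 (median -0.20), 5 of 8 H4 (median -0.15) and 4 of 9 H2B (median 0.04) were lower in M, and a difference between the types was not tested. Hist1h2ba and Hist1h2bl had the highest ratios, both 0.31, followed by Hist1h4n at 0.25. At 1.5-fold, Hist1h2ak (10.5 units in M and 16.5 in EV, -0.60) and Hist2h4 (9.88 and 18.4, -0.83) were lower and 0 members were higher, against 2.32% and 1.49% of all genes. That is 4.55% of the 44 kept, 2 genes only. As deposited, 22 of 39 Hist1 members lay above the median of all genes, against 12 of 38 on scaled units. Hist1h2ak and Hist2h4 then stood at 0.78 and 0.54, below the median of all genes of 1.26.

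The library labelled MP against EV asks about both factors together. Of 44 members 40 were lower in the library labelled MP, with a median of -0.33, against 57.2% of all 10943 genes kept and 59.6% of the abundant ones; 4 were above 0, against 42.8%. At 1.5-fold 7 members, or 15.9%, were lower, against 4.65% of all genes, and 0 were higher, against 1.13%. Hist2h4 (XLOC_032781) stood at 8.62 units in the library labelled MP and 18.4 in EV. At -1.01 it was the only member past 2-fold in any of the 8 comparisons with a pseudocount of 1, against 1.78% of all genes 2-fold lower here. With a pseudocount of 0.1, Hist3h2ba in EV over WT (-1.40) and Hist4h4 in MP over P (-1.02) were past it too. So was Hist3h2ba in P over EV, in the other direction, at 1.51 units in the library labelled P and 0.678 in EV. The other 6 were Hist1h2ak and Hist1h1a (-0.70 each), Hist1h4f (-0.67), Hist1h4m (-0.63), Hist1h2ai (-0.60) and Hist1h2ab (-0.59). The median was -0.45 for the 8 Hist1 H4 genes, -0.36 for H3, -0.31 for H2A and -0.12 for H2B, whose highest were Hist1h2bp (0.01) and Hist1h2bl (0.00).

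The library labelled MP against M asks what the added Prep1 construct changes. Of 44 members 36 were lower, with a median of -0.19, against 55.6% of all 10796 genes kept, and 8 were higher, against 44.4%. All 10 H4 genes were lower. At 1.5-fold Hist1h2ba (11.3 units in the library labelled MP and 18.8 in M, -0.69), Hist1h4n (-0.67) and Hist1h4k (-0.59) were lower, or 6.82% of the members, against 3.02% of all genes, and 0 were higher, against 0.815%. Hist1h4k was no longer past 1.5-fold under the median-ratio scaling or with loci summed (-0.58 each). Hist1h2aa was higher, at 3.76 units against 2.94 in M (0.27), so that the shared start of Hist1h2aa and Hist1h2ba had members on opposite sides.

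The library labelled MP against the library labelled P asks what the added Meis1 construct changes. This comparison shares the library labelled P with that of P against EV, so the 2 are not independent. Here all 7 members outside Hist1 were lower in the library labelled MP, with a median of -0.56 and a range of -0.82 to -0.33, and 27 of 38 Hist1 members were higher, with a median of 0.15. Over all 10725 genes kept, 53.4% were above 0 and 46.6% below; of the abundant genes 73.0% were above 0, so the Hist1 share of 71.1% was near that of abundant genes. At 1.5-fold Hist2h3c2 (4.43 units against 8.58 in the library labelled P, -0.82) and Hist4h4 (1.68 against 3.51, -0.75) were lower, against 5.21% of all genes, and 0 were higher, against 1.32%. The highest ratios were those of Hist1h2bp (0.53), Hist1h2bl (0.47) and Hist1h3f (0.35). Of the 8 Hist1 H4 genes 5 were lower, Hist1h4n most (-0.46).

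Both labelled overexpression lines were also set against WT. In the library labelled P the median member was at 0.08, with 29 of 45 above 0, against 56% of all 11358 genes kept, and 16 below, against 44%. There, 1 member, Hist2h3c2 (8.58 units against 5.24 in WT, 0.62), was 1.5-fold higher, against 3.28% of all genes, and 0 were lower, against 11.2%. In the library labelled MP 32 of 38 Hist1 members were higher than in WT (median 0.17), against 51.8% of all 11267 genes kept and 78.1% of the abundant ones, and all 7 members outside Hist1 were lower (median -0.35), against 48.2% of all genes. Hist2h4 (8.62 units against 14.6 in WT, -0.70) and Hist3h2ba (0.941 against 1.96, -0.61) were 1.5-fold lower there, against 17.2% of all genes, and 0 members were 1.5-fold higher, against 4.45%. The 4.44% of members that were lower is under the share of all genes.

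The members outside Hist1 are few, and their values are therefore given one by one. Hist2h4 stood at 9.88, 13.4, 8.62, 18.4 and 14.6 units in M, P, MP, EV and WT, and was the only one of the 7 that was highest in EV. Hist2h3c2 stood at 5.48, 8.58, 4.43, 6.44 and 5.24, and Hist2h2be at 3.05, 4.69, 2.87, 2.91 and 3.54, both highest in the library labelled P. Hist3h2a (XLOC_004970) stood at 4.31, 6.50, 4.98, 4.97 and 6.64, high in the library labelled P and WT and low in the other 3. Hist3h2ba stood at 0.370, 1.51, 0.941, 0.678 and 1.96, and the pseudogene Hist3h2bb-ps at 1.08, 2.09, 1.37, 1.39 and 2.42, both also highest in WT and lowest in M. Hist4h4 (XLOC_044061), the single member of Hist4, stood at 1.75, 3.51, 1.68, 2.08 and 2.33. In the authors' deposited tables the test status of Hist2h2be, Hist2h3c2 and Hist2h4 was FAIL for M and WT.

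**Figure D3:**
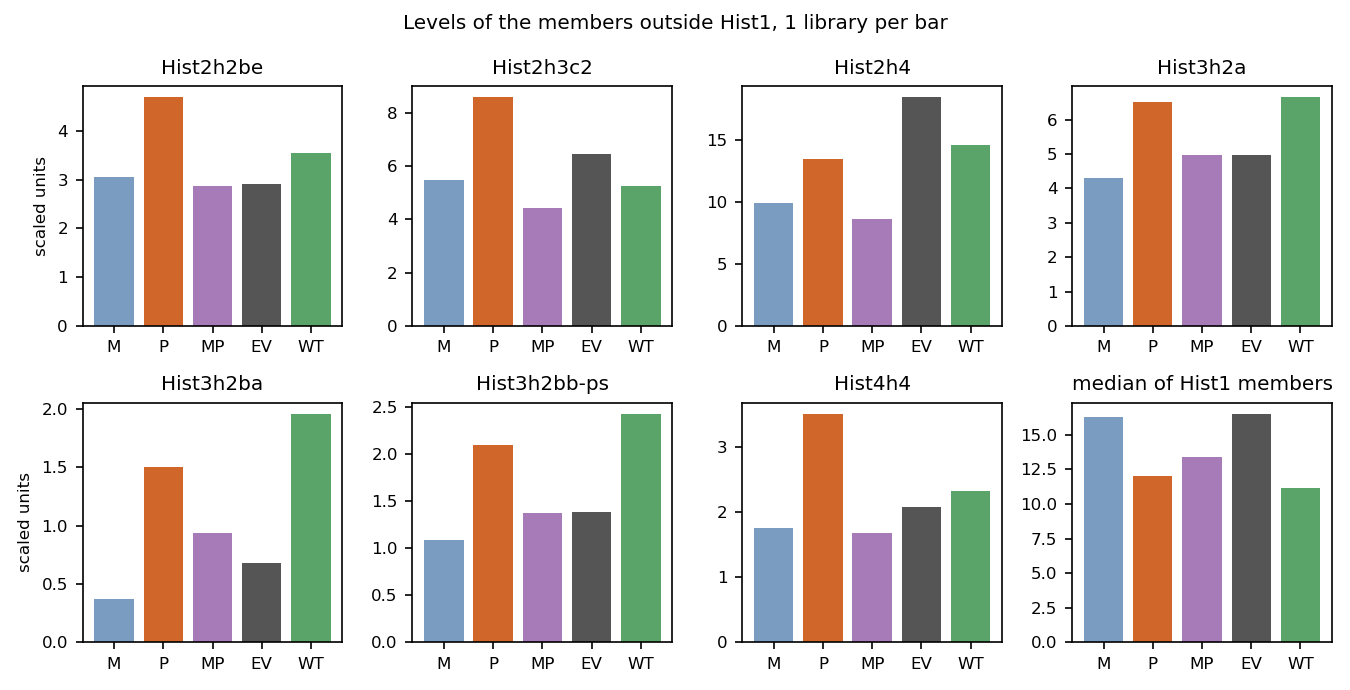
Scaled levels (vertical axes, scaled units, each from 0 with its own range) of the 7 members outside Hist1 in the libraries M, P, MP, EV and WT, 1 library per bar, with the median of the 39 Hist1 members in the last panel. Hist2h2be, Hist2h3c2 and Hist4h4 are highest in the library labelled P and the Hist3 members in WT, while the Hist1 median is lowest there, at 12.0 and 11.2.

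Loci that join several genes of the Hist2 cluster are not members. The locus of Hist2h3c2, Hist2h2ac and Hist2h2aa2 stood at 10.2 units in M, 19.3 in the library labelled P, 5.18 in the library labelled MP, 17.2 in EV and 17.8 in WT, a ratio of -1.71 for the library labelled MP against the library labelled P. A locus that joins 6 Hist2 genes, Hist2h2be among them, stood at 17.7, 22.3, 15.3, 24.8 and 18.4 units. Both were lowest in the library labelled MP, as were 4 of the 7 single members outside Hist1. In EV over WT the locus of 6 Hist2 genes was at 0.41 and that of Hist2h3c2, Hist2h2ac and Hist2h2aa2 at -0.05. In the library labelled P against EV they were at -0.14 and 0.15. The 5 joined Hist1 loci were all higher in EV than in WT, by 0.28 to 0.80.

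Transcript length moved with the cluster. The longest annotated transcript was over 1000 bases for 9 members, 5 of them outside Hist1; all members are counted here, without the filter on low values. In the library labelled P against EV these 9 had a median of 0.21, with 6 above 0, while the 37 others had a median of -0.41, with 34 below 0. Within Hist1 the 4 longer members had a median of -0.24 and the 35 others -0.45. In the library labelled MP against P the medians were -0.33 for the 9 and 0.11 for the 37. Hist1h2ac, with 2010 bases after its stem-loop, was at 4.63, 5.86, 4.81, 4.92 and 4.08 units in M, P, MP, EV and WT, and so was highest in the library labelled P like Hist4h4 and Hist2h2be. Other members went against length. Of the 4 longer Hist1 members 2 were below 0 in P over EV, Hist1h3d (1249 bases, -0.61) and Hist1h3f (1261 bases, -0.51). Hist3h2ba, with 614 bases, was at 0.58. FPKM divide by transcript length, and the share of long and short forms was not tested.

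Genes that act with the clustered histones were set beside them. The genes of the S phase list, most of which act in DNA replication, were all higher in EV than in WT (16 of 16). Of all genes 53.6% were higher there, and of abundant genes 79.6%. The S phase median was 0.50, that of Hist1 0.49 and that of the fibroblast markers 0.43, with 7 of 9 markers above 0. In the library labelled P against EV all 16 S phase genes were lower (median -0.31), against 55.6% of all genes and 75.6% of abundant ones. In M 14 of 16 were lower than in EV (median -0.15), against 51.4% and 57.9%. In the library labelled MP against M the Hist1 median was -0.21 and that of the S phase genes 0.03. The median Hist1 member stood at 16.3, 12.0, 13.4, 16.5 and 11.2 units in M, P, MP, EV and WT, and the median S phase gene at 14.1, 11.7, 14.3, 15.4 and 10.4, so the Hist1 median was the lower of the 2 in the library labelled MP alone. Mcm6, part of the replicative helicase, stood at 13.5, 10.3, 14.0, 15.1 and 8.30 units. Top2a, a topoisomerase, stood at 12.0, 9.19, 13.3, 14.6 and 8.35. In EV over WT Mcm6 had the highest ratio of the list (0.79) and Top2a was at 0.74. Cdt1 had the lowest (0.12) and stood at 15.6, 16.3, 14.9, 17.5 and 16.1 units. The share of cells in S phase was not measured, and its part in the differences was not tested.

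**Figure D4:**
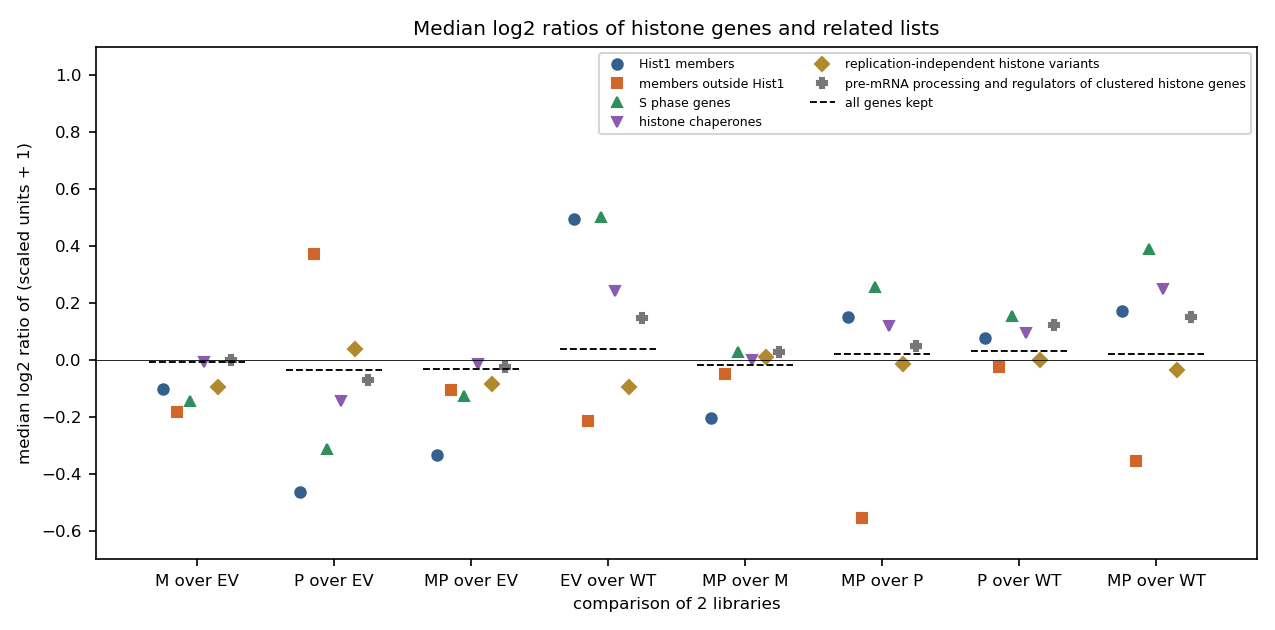
Median log2 ratios (vertical axis, log2 of scaled units + 1) of the Hist1 members, the members outside Hist1 and 4 lists of related genes in the 8 comparisons, with dashed lines for all genes kept. Hist1 members and S phase genes have medians of 0.49 and 0.50 in EV over WT, and of -0.21 and 0.03 in MP over M.

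The genes that process and regulate histone messages differed little between libraries, and so did most abundant genes. Of 20 measured, 0 were 1.5-fold apart in any comparison, and the list's median lay between -0.07 and 0.15. Of the abundant genes, 6.89% were 1.5-fold higher and 0.551% lower in EV over WT, and 0.095% and 0.266% in MP over M. The shares of all genes were 8.43% and 14.1% in EV over WT, and 0.815% and 3.02% in MP over M. Npat, the coactivator of histone transcription, stood at 14.0, 11.7, 13.0, 13.3 and 11.2 units in M, P, MP, EV and WT, and Casp8ap2, which is also needed for histone expression, at 13.1, 12.0, 13.3, 12.3 and 11.5. Slbp and E2f1 lay in joined loci and have no value here. The histone chaperones, which carry histones to DNA, had a median of 0.24 in EV against WT, with 12 of 16 above 0, against 53.6% of all genes and 79.6% of abundant ones; Ssrp1, a subunit of the FACT complex, stood at 11.4, 9.26, 13.7, 15.0 and 7.82 units and was the 1 chaperone past 1.5-fold there (0.86). The replication-independent variants, whose symbols the rule does not take, had a median of -0.09 in the same comparison, with 3 of 8 above 0. H3f3a, an H3.3 gene, was 1.5-fold higher in EV (7.28 units against 3.79 in WT, 0.79) and the linker variant H1fx 1.5-fold lower (4.23 against 6.85, -0.59).

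The authors' deposited tables give calls of their own on unscaled values, 1 library against 1 at a q-value under 0.05. They mark 0 of the 42 members with a test status of OK in M, where 4.39% of all 22894 single-gene loci were called higher and 0.0131% lower. Against EV, they mark all 45 members with that status as lower in the library labelled P, all 45 in the library labelled MP and all 42 in WT, and 0 as higher in any of these. Of all these loci, 43.3%, 41.2% and 44.6% were called lower in P, MP and WT, and 0.00437%, 0.00437% and 0.048% higher. The members' directions on the common scale are those given above.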

How the data were processed

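Total RNA from 5 MEF cultures was sequenced (labels' protocols), giving the libraries M, P, MP, EV and WT, which the sample labels define. The authors deposited 4 gene tables, each with EV and 1 other library, and Cuffdiff, Cufflinks, TopHat and the mm9 build are named, without versions, per the submitters' processing notes. Values are FPKM per locus as deposited by the authors; each table also holds a p-value and a q-value from the authors' own test between its libraries, per the file headers. Read depth and poly(A) selection are not stated.

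Of 61082 loci, the 22894 that carried 1 symbol were used, and where a symbol had several loci, that of the highest average log2(FPKM + 1) stood for it. The deposited upper quartiles ran from 10.1 FPKM in MP to 448 in M. Each library was therefore scaled to an upper quartile of 10 over symbols at 1 FPKM or more in any library. EV values came from the table of M in every comparison, and EV in the P, MP and WT tables differed from these by the factors 1.1, 0.972 and 1.12. Ratios are log2((level + 1)/(level + 1)) for genes at 1 scaled unit or more in 1 of the 2 libraries (44 or 45 of the 46 members), with calls at 1.5-fold and 2-fold. No test was run. The scaling was tested on simulated data.

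Named genes were the 3 most abundant members of each type, the 3 highest and 3 lowest ratios per comparison at 5 units or more, members 2-fold apart, all Hist3 and Hist4 members, the germ-line members and, of the gene lists, Npat, Casp8ap2 and genes with the largest ratios. Mcm6, Top2a, Cdt1, Hist2h2be and other members named for a pattern were chosen after their values were seen. So were the split by cluster order, transcript length and shared starts. Members, lists and rules were chosen with earlier results of these data known. Alternatives were values as deposited, median-ratio scaling, a pseudocount of 0.1, no filter, a filter at 5 units, sums over loci, and leaving out pseudogenes and symbols with several loci. Stem-loops, lengths and identity come from GENCODE vM21 transcripts and promoters from RefSeq (GRCm38.p6), matched by symbol; coordinates are of that build, not of mm9. Python 3.11.15, numpy 2.4.6, pandas 2.3.3, Biopython 1.88 and matplotlib 3.10.9 were used.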

Additional observations from a re-analysis of the deposited data

How the results depend on the processing

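Medians over all members kept their direction under all 7 alternatives, apart from M over EV as deposited. The median outside Hist1 did not: it was 0.25 in EV over WT with the filter at 5 units (-0.22 as reported) and 0.15 in P over WT without pseudogenes and symbols of several loci (-0.03), and as deposited it changed sign in M over EV (1.17), P over EV (-3.03) and EV over WT (3.33). On the values as deposited, which hold the level of the whole library, the median member stood at 1.25 in M over EV (-0.15 scaled), -4.24 in P over EV (-0.38), -4.26 in MP over EV (-0.33), 4.26 in EV over WT (0.46) and -5.52 in MP over M (-0.19). Under that setting Hist1h2ak (0.78) and Hist2h4 (0.54) in M over EV and Hist3h2ba (1.97) in EV over WT changed sign, and 44 to 46 members were past 1.5-fold in the direction of the library in each of these comparisons. Median-ratio scaling gave a median of 0.34 in EV over WT and 0.017 in MP over WT, where the scaled medians were 0.46 and 0.14. It moved the median of all genes by over 0.1 in the same comparisons, to -0.08 and -0.10, and gave 3 members 1.5-fold lower and 3 higher in P over EV (8 and 0 on the main scale), 6 higher and 2 lower in EV over WT (11 and 1), 4 lower in MP over P (2) and 0 higher in P over WT (1). Under it, and with loci summed, Hist1h4k was under 1.5-fold in MP over M (-0.58), leaving 2 members lower. With a pseudocount of 0.1, 3 members were higher in P over EV, 2 lower in EV over WT and 5 lower in MP over P. With the filter at 5 units, 0 were lower in EV over WT, 1 in MP over P and 1 in MP over WT. As deposited, 4 were lower in MP over P. The cause of these shifts was not tested. No paired analysis was possible because each group has 1 library, and for the same reason no library could be left out. Depth is unknown, so no counting error could be given. Copies of near-identical sequence limit the values of single members.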
